A study of Mus musculus with 2 samples.

Results

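Complement is a set of plasma and cell-surface proteins that tag microbes, immune complexes and debris for uptake, draw in leukocytes and open pores in membranes. Antibody-bound surfaces start it through C1 (the classical pathway), sugar patterns through collectins and their proteases (the lectin pathway), and slow spontaneous turnover of C3 through factor B, factor D and properdin (the alternative pathway). All routes cleave C3, and inhibitors in fluid and on host cells limit the damage to self. The liver makes most plasma complement, while macrophages and fibroblasts make several components locally.

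The 30 genes described here were a fixed list of mouse complement components, receptors and inhibitors, of 32285 genes in the deposited matrices. Each symbol matched 1 gene. The rule for the list uses no expression value, but the list was chosen with earlier results of these data known. They comprised 5 genes of classical initiation, 2 of the lectin pathway, 6 for C2, C3, C4 and the terminal proteins, 3 of the alternative pathway, 4 soluble regulators, 4 membrane regulators and 6 receptors. Over the classes with 50 or more cells, 22 of the 30 genes reached a level of 50 CPM, the depth-scaled UMI count of a gene, in at least 1 class of 1 library. The other 8, namely C2, C6, Cd46, Cfd, Cfi, Hc, Masp1 and Vsig4, stayed below that level in all such classes.

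The data were 2 droplet single-cell RNA libraries of the soft tissue behind the mouse tibia, around the Achilles tendon. The injured library came from limbs 7 days after a burn with cutting of the tendon, and the uninjured library came from the other limb of mice that had the same procedure, so neither came from untreated animals. Both carried Hoxa11 wt/CreERT2, R26 wt/LSL-rtTA and TetO-Vegfd, alleles that together allow the lymphatic growth factor Vegfd to be made in cells of the Hoxa11 lineage, a mesenchymal lineage of the lower limb. The mice were males and females, operated at 8 to 12 weeks of age. The design gives 5 mice per group, and whether a library pooled animals was not given in the sources used here. No control-genotype library was analysed.

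Injured tissue gave 10691 barcodes with 253050820 UMIs, and uninjured tissue 6850 barcodes with 101685524 UMIs. Mitochondrial UMIs exceeded 10% in 7.49% of injured and 26.4% of uninjured barcodes. After filtering, 9164 injured cells (median 17494 UMIs) and 4702 uninjured cells (median 15771.5 UMIs) remained, and the libraries shared 19 cell barcodes. Vegfd stood at 195 CPM in injured and 65.7 CPM in uninjured mesenchymal cells. Mononuclear phagocytes (macrophages and monocytes) made up 30.1% of injured and 8.83% of uninjured cells, neutrophils 10.9% and 0.0851%, vascular endothelial cells 13.1% and 34.6%, and mesenchymal cells (fibroblast-like and tenocyte-like) 26.1% and 28.3%. Cell classes were built without any complement gene. With 1 library per group nothing could be tested, and every interval below is an exact 95% interval for counting error alone. Levels were compared for 1 gene at a time, because 3′-end UMI counts do not rank different genes.

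Most complement genes had a main cell class, and the members of one pathway came from different cells. In the injured library, 21 members reached 50 CPM in some class. Mesenchymal cells held the highest level of 6 of them (C1ra, Colec12, C3, C4b, Cfb and Serping1), where they held the highest level of 8.03% of all genes at that level. Mononuclear phagocytes held the highest level of 5 (C1qa, C1qb, C1qc, Cfp and C3ar1), with 7.18% of all genes, and neutrophils of 3 (Itgam, C5ar1 and C5ar2), with 12.6%. The remaining 7 lay highest in pericytes or smooth muscle cells (C1s1 and Vtn; 7.18% of all genes), vascular endothelium (Clu and Cr1l; 6.94%), dendritic cells (Itgax; 4.40%), lymphatic endothelium (Cd55; 12.2%) and Schwann cells (Cd59a; 11.5%). Some of these leads were narrow, such as C4b (88.7 CPM in mesenchymal cells against 84.7 CPM in phagocytes). Serping1 was another, at 740 CPM in mesenchymal cells against 688 CPM in pericytes or smooth muscle cells. In the uninjured library, 22 members reached 50 CPM. Narrow leads there included C1s1 (288 CPM in mesenchymal cells, 274 CPM in pericytes or smooth muscle cells). Clu was at 128 CPM in lymphatic endothelium and 117 CPM in mesenchymal cells. Mesenchymal cells led for 7 (C1ra, C1s1, C3, C7, Cfb, Serping1 and Cd55), against 10.3% of all genes, and phagocytes for 7 (C1qa, C1qb, C1qc, C4b, C3ar1, C5ar1 and C5ar2), against 13.6%. Dendritic cells led for Cfp, Itgam and Itgax in that library (10.7% of all genes; for Itgam the lead was a tie, 286.2 CPM against 285.8 CPM in phagocytes), lymphatic endothelium for Colec12 and Clu (14.5%), pericytes or smooth muscle cells for Vtn (10.7%), Schwann cells for Cd59a (14.5%) and vascular endothelium for Cr1l (12.0%).

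**Figure D1:**
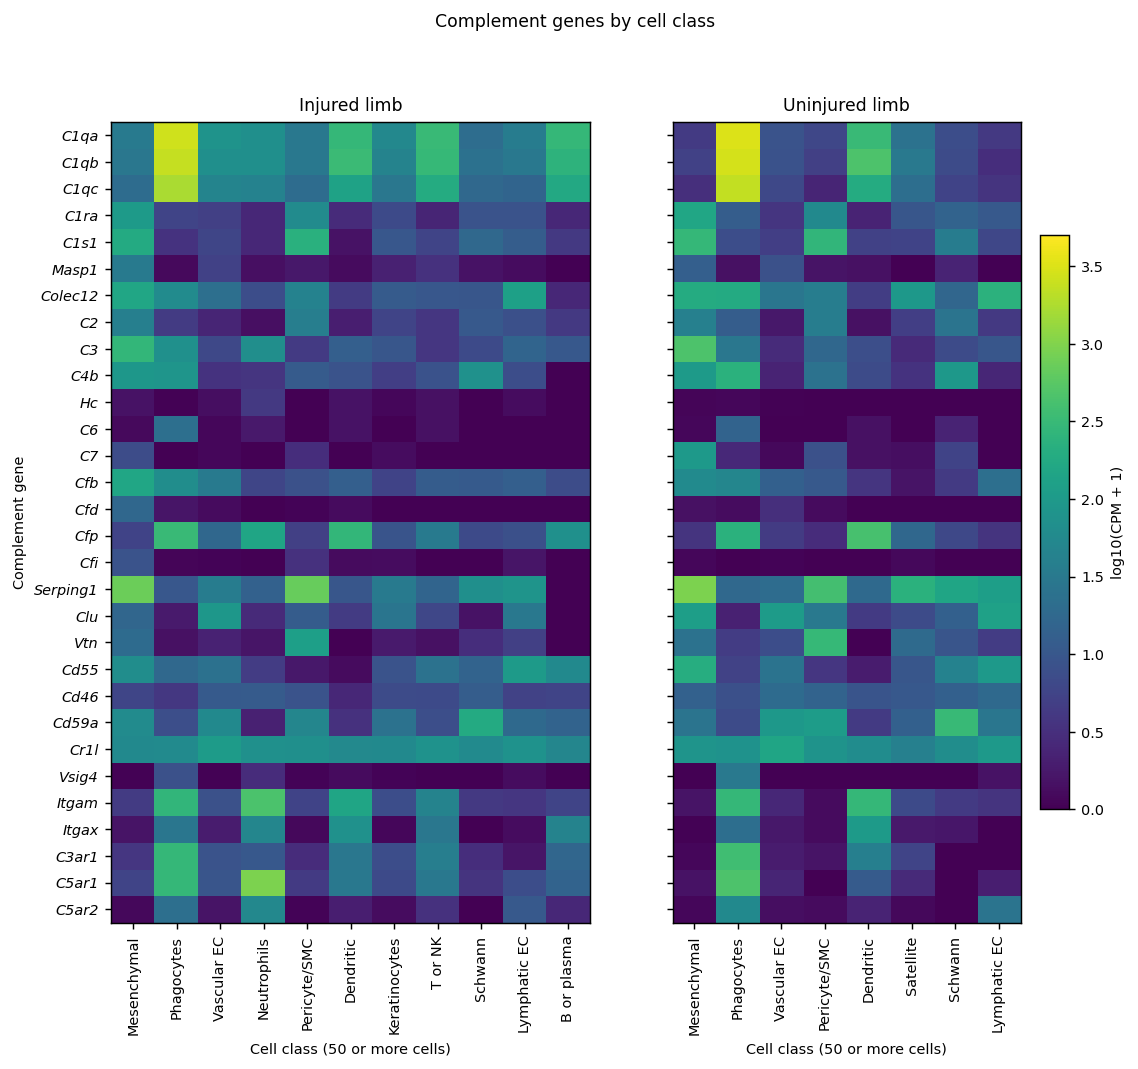
Level of each of the 30 complement genes (rows, in order of role) in each class of 50 or more cells (columns), as log10(CPM + 1), in the injured limb (left, 11 classes) and the uninjured limb (right, 8 classes). The C1q chains are brightest in phagocytes, and C1ra, C1s1, C3 and Serping1 in mesenchymal cells and, for C1ra, C1s1 and Serping1, in pericytes or smooth muscle cells.

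C1q, the recognition molecule of the classical pathway, is built from 3 chains that lie side by side on mouse chromosome 4, between positions 136880129 and 136898803 (mm10, all on the minus strand). Phagocytes held 91.4% of C1qa UMIs in the injured library (91.2 to 91.5) and 94.4% in the uninjured library (94.1 to 94.7). The level of C1qa was 2744 CPM in injured phagocytes and 3219 CPM in uninjured phagocytes. C1qb stood at 2350 CPM in injured and 2918 CPM in uninjured phagocytes. For C1qc the values were 1725 CPM in injured and 2296 CPM in uninjured phagocytes. All 3 chains were thus somewhat lower per UMI in injured phagocytes, by 1.17-fold for C1qa (1.16 to 1.19), 1.24-fold for C1qb (1.22 to 1.26) and 1.33-fold for C1qc (1.31 to 1.35), none past 2-fold. Thinned to 2000 UMIs per cell, 70.5% of injured and 92.1% of uninjured phagocytes had a C1qa UMI, with 223 injured and 8 uninjured cells too shallow to enter. Unthinned shares were 81.2% and 92.8%. Of mesenchymal cells, 40.5% of injured and 6.60% of uninjured ones also had a C1qa UMI, at median depths of 44496 and 19168 UMIs.

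Since the C1q chains were found in the same cells, their available promoters are shown for the letters of the PU.1 core (GAGGAA on either strand), the sequence bound by a transcription factor that macrophages depend on. Of the 30 members, 21 had an entry in the RefSeq promoter table (GRCm38.p6, 23 entries, each from 250 bases before to 50 bases after a start site). C1qa had no entry, so its promoter was not searched. The C1qb entry is chr4:136886151-136886450 and the C1qc entry chr4:136892865-136893164, both minus strand, and capitals mark the match, which begins at -30 in C1qb and at -193 in C1qc.
C1qb: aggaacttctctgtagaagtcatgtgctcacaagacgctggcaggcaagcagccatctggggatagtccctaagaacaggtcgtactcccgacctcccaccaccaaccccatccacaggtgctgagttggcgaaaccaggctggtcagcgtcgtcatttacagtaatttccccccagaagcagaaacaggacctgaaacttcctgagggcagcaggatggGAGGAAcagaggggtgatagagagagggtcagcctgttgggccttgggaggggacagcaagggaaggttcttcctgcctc
C1qc: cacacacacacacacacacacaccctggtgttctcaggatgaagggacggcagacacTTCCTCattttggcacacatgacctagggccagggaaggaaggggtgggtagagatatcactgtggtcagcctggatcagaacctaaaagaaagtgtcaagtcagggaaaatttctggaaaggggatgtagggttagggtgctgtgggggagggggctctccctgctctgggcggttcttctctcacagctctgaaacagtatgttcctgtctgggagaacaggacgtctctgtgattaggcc
These letters occur in 28.3% of the 32851 promoters in the table and in 8 of the 23 member entries (C1qb, C1qc, C1ra, C5ar2, Cd59a, Cfp, Itgam and Vsig4), so a match of this length is common. No binding was measured.

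Macrophage clusters differed in C1q. Cluster 8 (leading genes Retnla, F13a1 and Ccl8) was the main phagocyte cluster present in both libraries, with 366 injured and 314 uninjured cells, and C1qa stood there at 4231 CPM in injured and 3356 CPM in uninjured cells, a ratio of 1.26 (1.24 to 1.29). Its cells were not alike in both libraries. MHC class II genes (5 genes, such as H2-Aa) summed to 5865 CPM in injured and 20141 CPM in uninjured cells of cluster 8, and wound macrophage genes (6 genes, such as Spp1 and Arg1) to 1772 and 608 CPM, and the part of these shifts in any result within the cluster was not tested. In cluster 2, which was led by antigen-presentation genes such as H2-Aa and Cd74, C1qa was 1848 CPM in 946 injured cells and 3147 CPM in 62 uninjured cells, a ratio of 0.587 (0.566 to 0.609). The injured library also held cluster 5 (Pf4, Apoe), at 3735 CPM of C1qa, and the monocyte-like cluster 13 (Plac8, Ccr2), at 412 CPM. In cluster 8, C1qc had a ratio of 1.19 (1.16 to 1.22) and C1qb a ratio of 0.973 (0.952 to 0.994). The shift in the class as a whole was therefore opposite to cluster 8 for C1qa and C1qc, but not for C1qb. The chains also kept different proportions. For every 100 C1qa UMIs, injured cells of cluster 8 held 68.2 C1qb UMIs (66.9 to 69.5) and uninjured cells of the cluster 88.4 (86.5 to 90.4), whereas injured monocyte-like cells held 134 (127 to 142). Dendritic cells held 113 C1qb UMIs per 100 of C1qa in the injured library (105 to 123) and 146 in the uninjured library (133 to 161), both above the values of the phagocyte class, 85.6 (84.9 to 86.4) and 90.6 (88.9 to 92.4). Their C1qa level was 10.6% of the phagocyte level in the injured and 9.99% in the uninjured library. On that scale the 12 macrophage markers had sums of 10.6% and 12.4% and medians of 7.09% and 6.44%. Adgre1, one of these markers, was detected in 63 of 251 injured and 77 of 100 uninjured cells of the class. The part of macrophage RNA in the dendritic C1q values was not tested.

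C1q also appeared outside phagocytes and dendritic cells. In mesenchymal cells, vascular endothelium and pericytes or smooth muscle cells its level was higher in the injured library. C1qa stood at 31.0 CPM in injured and 3.26 CPM in uninjured mesenchymal cells, and at 78.7 CPM in injured and 7.85 CPM in uninjured vascular endothelial cells. Of the vascular cells, the injured part of cluster 20, led by cell-cycle genes such as Top2a, had 232 CPM, with the macrophage gene Csf1r in 59 of its 200 cells, against 22.6 to 49.5 CPM in the other injured vascular clusters. Without cluster 20, an alternative chosen after seeing the data, the vascular log2 ratio of C1qa was 1.77, against 2.70 with it. Pericytes or smooth muscle cells had 29.6 CPM in the injured and 5.10 CPM in the uninjured library. These were small fractions of the phagocyte level. C1qa in mesenchymal cells was 1.13% of its phagocyte level in the injured and 0.101% in the uninjured library, and the 12 macrophage markers used to name clusters had a median of 1.33% and 0.175% on the same scale, with none of the 12 at 0 in either library. In vascular endothelium C1qa was 2.87% and 0.244% of its phagocyte level, beside marker medians of 3.13% and 0.290%. T or NK cells of the injured library had 11.7% of the phagocyte level of C1qa and a marker median of 11.5%. The macrophage list summed to 373 CPM in injured and 327 CPM in uninjured mesenchymal cells, and to 329 CPM and 67.5 CPM in vascular endothelium. Free RNA in droplets and undetected doublets were not removed, and their part in these C1q values was not tested.

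C1ra and C1s1, the mouse genes of the proteases that C1q activates, came from stromal rather than phagocytic cells. Mesenchymal cells held 89.6% of injured and 87.2% of uninjured C1ra UMIs, and 84.4% of injured and 77.1% of uninjured C1s1 UMIs. C1ra was 103 CPM in injured and 151 CPM in uninjured mesenchymal cells, 1.47-fold lower in the injured ones (1.42 to 1.52). C1s1 was 180 CPM in injured and 288 CPM in uninjured mesenchymal cells, a ratio of 0.625 (0.609 to 0.641). Pericytes or smooth muscle cells, which wrap small vessels, had C1s1 at 220 CPM in the injured and 274 CPM in the uninjured library, close to the mesenchymal level in both. Injured mesenchymal clusters ranged from 53.8 CPM of C1s1 in cluster 24 to 424 CPM in cluster 4. Near-identical copies can share reads with these genes, but few UMIs were assigned to them, 31 and 6 for C1rb and 116 and 16 for C1s2 in the injured and uninjured libraries.

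Within the lectin pathway, Masp1 encodes a protease that collectins and ficolins activate, and Colec12 a membrane collectin that also acts as a scavenger receptor. Masp1 was 32.9 CPM in injured and 12.1 CPM in uninjured mesenchymal cells, 2.71-fold higher in the injured ones (2.42 to 3.04). Venule-like endothelial cells (cluster 11, led by Selp and Vwf) went the other way, with 16.1 CPM in injured and 55.9 CPM in uninjured cells, a ratio of 0.287 (0.229 to 0.360). Vascular endothelium held 4.52% of injured and 37.7% of uninjured Masp1 UMIs. Colec12 was spread over mesenchymal cells (151 CPM in injured and 188 CPM in uninjured), lymphatic endothelium (126 and 237.5 CPM) and phagocytes (59.6 and 182 CPM). In phagocytes it was 3.06-fold lower in the injured library (2.85 to 3.28). Within cluster 8, however, Colec12 was 165 CPM in injured and 234 CPM in uninjured cells, a ratio of 0.708 (0.650 to 0.770) that is not past 2-fold, and the uninjured phagocytes lay mostly in that cluster.

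C3, on which all routes meet, was a mesenchymal gene at this site. Mesenchymal cells held 89.2% of injured C3 UMIs (88.8 to 89.5) and 97.1% of uninjured C3 UMIs (96.8 to 97.4). The level in that class was 278 CPM in injured and 462 CPM in uninjured cells, 1.66-fold lower in the injured library (1.63 to 1.70). Thinned to 2000 UMIs, 24.7% of injured and 26.6% of uninjured mesenchymal cells had a C3 UMI. The injured class was uneven. Fibroblast cluster 4 (Sfrp2, Igfbp4) had 780 CPM of C3 and cluster 6 (Gsn, Clec3b) 654 CPM, while cluster 7 (C1qtnf3, Cthrc1, Postn), a matrix-producing cluster scored as tenocyte-like, had 19.3 CPM. In cluster 6, the fibroblast cluster shared by the libraries (95 injured and 691 uninjured cells), C3 was 654 CPM in injured and 727 CPM in uninjured cells, a ratio of 0.899 (0.852 to 0.949). This cluster too differed in its markers, with synovial lining genes (5 genes, Prg4 among them) summing to 6023 CPM in injured and 414 CPM in uninjured cells and progenitor fibroblast genes (6 genes, such as Pi16 and Dpp4) to 7514 and 3847 CPM, and their part in the C3, C7, Cfb and Cd55 values of the cluster was not tested. Phagocytes moved in the opposite direction to the mesenchymal class, with 70.0 CPM of C3 in injured and 28.0 CPM in uninjured cells, 2.51-fold higher in the injured library (2.16 to 2.93), though within 2-fold (0.85 on the log2 scale) among cells holding Y-linked UMIs without Xist.

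**Figure D2:**
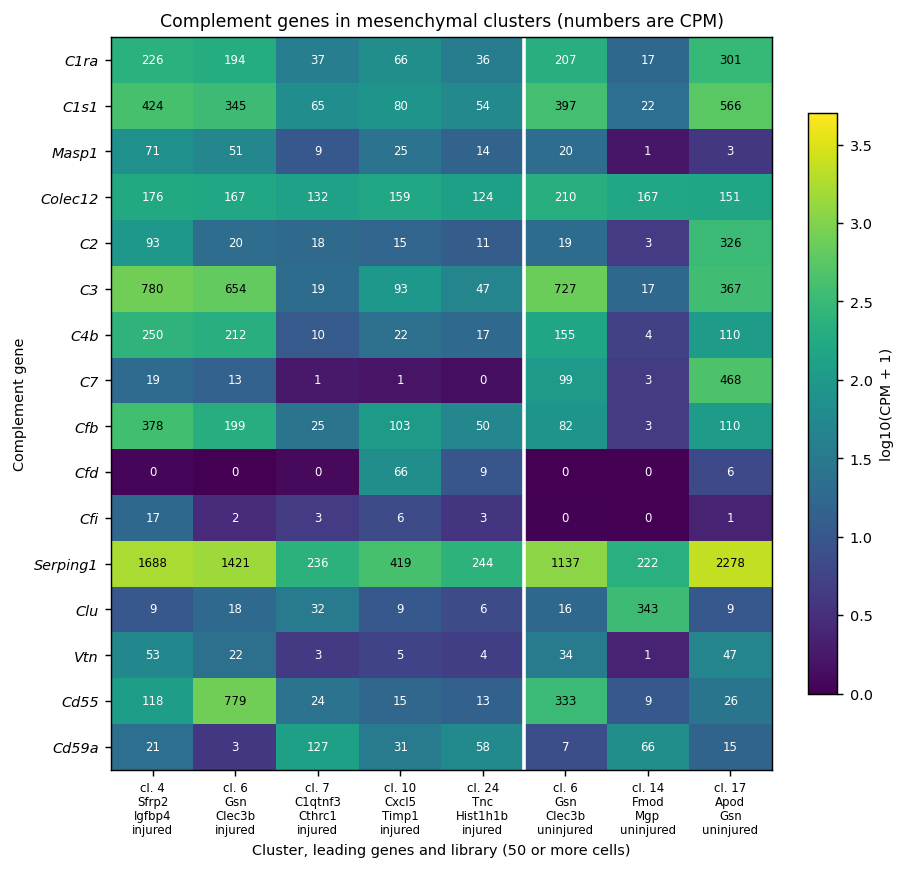
Level in CPM (numbers; colour is log10(CPM + 1)) of 16 complement genes in the mesenchymal clusters with 50 or more cells, injured clusters on the left and uninjured clusters on the right of the white line. C3, Cfb, C4b and Serping1 are high in injured clusters 4 and 6 and low in cluster 7, and uninjured cluster 17 has the highest C2, C7 and Serping1.

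C4b, the mouse gene of C4, had 2 main sources, since mesenchymal cells held 71.3% of its injured and 60.9% of its uninjured UMIs and phagocytes 24.9% and 32.5%. It stood at 84.7 CPM in injured and 231 CPM in uninjured phagocytes, 2.73-fold lower in the injured ones (2.57 to 2.90). Within cluster 8 it was 379 CPM in injured and 297 CPM in uninjured cells, a ratio of 1.27 (1.19 to 1.36), and clusters 2, 5, 13 and 21 of the injured library had between 11.9 and 56.2 CPM. C4a, a near-identical copy, had 42 injured and 22 uninjured UMIs. C2, which supplies the protease of the classical C3 convertase, differed little in mesenchymal cells, at 39.0 CPM in injured and 40.0 CPM in uninjured cells, a ratio of 0.976 (0.913 to 1.04). Its level was 326 CPM in uninjured cluster 17 (Apod, Gsn), above the range of the other mesenchymal clusters of 50 or more cells, 3.34 to 93.2 CPM.

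C7 and C6, genes of the membrane attack complex, the pore that complement builds, each lay mainly in 1 class. C7, which anchors the growing pore in the membrane, was 6.30 CPM in injured and 97.9 CPM in uninjured mesenchymal cells, 15.5-fold lower in the injured library (14.3 to 16.9). It was lower inside the shared cluster 6 too, at 13.4 CPM in injured and 99.0 CPM in uninjured cells, a ratio of 0.135 (0.0916 to 0.193). Cluster 17, with 43 injured and 250 uninjured cells, held C7 at 468 CPM in the uninjured library. The C7 promoter is shown because C7 had the lowest ratio of the members. It is chr15:5063724-5064023, minus strand, and the capitals mark a match to TTCNNNGAA, the letters of a gamma-activated site, beginning at -164.
C7: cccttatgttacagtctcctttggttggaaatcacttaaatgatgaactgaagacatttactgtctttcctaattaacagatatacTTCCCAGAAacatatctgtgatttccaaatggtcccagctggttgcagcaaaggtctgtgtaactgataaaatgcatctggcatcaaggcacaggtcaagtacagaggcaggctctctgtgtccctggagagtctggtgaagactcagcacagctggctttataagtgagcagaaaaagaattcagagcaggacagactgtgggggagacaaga
The match occurs in 8.30% of all promoters in the table and in 3 of the 23 member entries (C1ra, C7 and Vtn). An interferon-stimulated element (GAAA, any 2 bases, GAAA, on either strand) was found in 3 member entries (Cd46, Cd59a and Vtn) and in 3.44% of all promoters, and an NF-kB site (GGGA, any base, TTTCC) in none of the 23 and in 0.411% of all. C6, another pore protein, was a macrophage gene here. Phagocytes held 94.9% of its injured and 90.2% of its uninjured UMIs. Within cluster 8 it stood at 128 CPM in injured and 18.4 CPM in uninjured cells, a ratio of 6.97 (5.61 to 8.75). Hc, the mouse gene of C5, was at or below 3.17 CPM in every class of the injured library and 0.153 CPM in the uninjured library.

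The alternative pathway genes differed in direction between classes. Factor B (Cfb), the protease of its C3 convertase, was 155 CPM in injured and 58.7 CPM in uninjured mesenchymal cells, 2.64-fold higher (2.51 to 2.78). In the shared cluster 6 it was 199 CPM in injured and 82.2 CPM in uninjured cells, a ratio of 2.43 (2.18 to 2.70). Vascular endothelium had 31.0 CPM in injured and 12.5 CPM in uninjured cells (2.48-fold, 2.21 to 2.78), and cluster 8 of the phagocytes 171 and 60.4 CPM, a ratio of 2.83 (2.49 to 3.23). The endothelial call was lost when each library was clustered alone, at a log2 ratio of 0.45, and narrowly with a mitochondrial limit of 20% (0.98) or finer clusters (0.90). Venule-like cluster 11 (316 injured and 179 uninjured cells) had 86.4 and 67.9 CPM of Cfb, a ratio of 1.27 (1.10 to 1.48). Artery-like cluster 23 (59 and 178 cells) had 51.3 and 12.5 CPM, a ratio of 4.11 (2.78 to 6.14). The part of cluster makeup in the endothelial ratio was not tested. In cluster 12 of the pericytes Cfb was lower, at 7.98 CPM in injured and 20.4 CPM in uninjured cells, and in lymphatic endothelium it was 12.1 and 21.4 CPM, within 2-fold. The whole phagocyte class differed less, at 65.1 CPM in injured and 49.6 CPM in uninjured cells (1.31-fold, 1.17 to 1.48). Properdin (Cfp), which stabilizes that convertase, came from myeloid cells. Cfp was 322 CPM in injured and 230 CPM in uninjured phagocytes (1.40-fold, 1.33 to 1.48) and 284 CPM in injured and 414 CPM in uninjured dendritic cells. Injured neutrophils had 146 CPM. Factor D (Cfd), the protease that activates factor B and a product of fat cells, was 16.2 CPM in injured and 0.466 CPM in uninjured mesenchymal cells, below the level set for a call. Of injured Cfd UMIs, 88.7% lay in mesenchymal cluster 10 (Cxcl5, Timp1), in 8 of its 533 cells. Adipoq, a fat-cell gene looked up after these values were seen, had 90.7% of its injured UMIs in the same cluster, in 3 of the 533 cells. Whether these cells also held Cfd was not tested.

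Among soluble regulators, Serping1 encodes the C1 inhibitor, which blocks the C1 and lectin proteases. Serping1 was 740 CPM in injured and 928 CPM in uninjured mesenchymal cells, 1.25-fold lower (1.24 to 1.27), and 688 CPM in injured and 394 CPM in uninjured pericytes or smooth muscle cells, 1.75-fold higher (1.65 to 1.85). Neither was past 2-fold, and within cluster 12 of the pericytes (402 injured and 84 uninjured cells) the ratio was 1.12 (1.04 to 1.21). After thinning to 2000 UMIs, 57.4% of injured and 66.4% of uninjured mesenchymal cells had a Serping1 UMI, against 1.82% and 1.23% of phagocytes. Satellite cells or myoblasts, the stem cells of muscle, were another source in the uninjured library, at 230 CPM. Factor I (Cfi), which cuts C3b and C4b with the help of cofactors, was 7.73 CPM in injured and 0.143 CPM in uninjured mesenchymal cells. Cluster 4 held 60.1% of injured Cfi UMIs, and 27.0% of its cells had one.

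Clusterin (Clu), which binds the terminal complex in fluid, was lower in injured mesenchymal cells, with 15.8 CPM in injured and 117 CPM in uninjured cells, 7.39-fold lower (6.97 to 7.84). The uninjured level lay mainly in cluster 14, the tenocyte-like cluster led by Fmod and Thbs4 (23 injured and 374 uninjured cells), at 343 CPM, where 62 of the 374 uninjured cells held its 2980 Clu UMIs. In the shared fibroblast cluster 6 Clu was 17.7 CPM in injured and 16.2 CPM in uninjured cells, a ratio of 1.09 (0.765 to 1.52). The mesenchymal difference also varied with the sex-linked transcripts of the cells. Where cells held Xist but lacked Y-linked UMIs, Clu was 18.4 CPM in injured and 29.5 CPM in uninjured cells, no longer past 2-fold, and where they held Y-linked UMIs but lacked Xist it was 14.7 and 280.0 CPM. In vascular endothelium Clu was 90.9 CPM in injured and 107 CPM in uninjured cells. There, the artery-like cluster 23 (Sema3g, Fbln5) had 776 CPM in injured and 488 CPM in uninjured cells, a ratio of 1.59 (1.47 to 1.72), and the venule-like cluster 11 had 116 and 402 CPM, a ratio of 0.289 (0.266 to 0.314).

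Vitronectin (Vtn), an adhesive protein that also blocks pore insertion, was 122 CPM in injured and 302.5 CPM in uninjured pericytes or smooth muscle cells, 2.49-fold lower (2.29 to 2.70). In cluster 12 of that class (Rgs5, Acta2) it was 133 CPM in 402 injured cells and 423 CPM in 84 uninjured cells. Unnamed cells held 517 of 3977 injured and 2487 of 4573 uninjured Vtn UMIs, most of them in cluster 15, which carried both pericyte and endothelial markers. The Vtn call in pericytes or smooth muscle cells was lost with a mitochondrial limit of 20%, at a log2 ratio of -0.66. It was also lost among cells holding Y-linked UMIs without Xist, at -0.87.

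Membrane regulators protect host cells. Decay-accelerating factor (Cd55), which takes convertases apart, was 64.2 CPM in injured and 198 CPM in uninjured mesenchymal cells, 3.09-fold lower (2.98 to 3.20). Inside the shared cluster 6 the direction was the opposite, with 779 CPM in injured and 333 CPM in uninjured cells, a ratio of 2.34 (2.22 to 2.47). Prg4, the lining gene named above, moved with it, at 5514 CPM in injured and 273 CPM in uninjured cells of the cluster. No other injured mesenchymal cluster of 50 or more cells exceeded 118 CPM. Phagocytes had 16.9 CPM in injured and 4.43 CPM in uninjured cells, 3.81-fold higher (2.63 to 5.74), on 29 uninjured UMIs, a call lost under 3 alternatives (log2 ratios of 0.59 to 0.97). In cluster 8 Cd55 was 73.7 CPM in injured and 5.20 CPM in uninjured cells. The small group of injured mast cells (33 cells) had 434 CPM (351 to 530).

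Cd59a, which stops assembly of the pore, was 59.8 CPM in injured and 25.8 CPM in uninjured mesenchymal cells, 2.31-fold higher and 1.07 on the log2 scale with 5 CPM added, but 0.79 among cells holding Y-linked UMIs without Xist. Injured cluster 7 had 127 CPM and uninjured cluster 14 had 66.3 CPM, while cluster 6 had 3.02 and 6.63 CPM, so the tenocyte-like clusters carried most of it. In pericytes or smooth muscle cells Cd59a was 48.2 CPM in injured and 112 CPM in uninjured cells, 2.31-fold lower (2.03 to 2.65), and the log2 ratio of -1.13 was within 2-fold under 4 alternatives, at -0.76 to -0.83. Schwann cells, which sheathe nerves, had the highest class level in both libraries, 182 CPM in injured and 313 CPM in uninjured cells. Crry (Cr1l), a rodent inhibitor of C3 convertases, was spread over all classes, from 49.2 to 105 CPM over the classes of the injured library and from 39.8 to 150 CPM in the uninjured library, highest in vascular endothelium in both. Cd46, a C3b cofactor that in mice is made chiefly in the testis, did not exceed 11.4 CPM in injured or 19.0 CPM in uninjured classes.

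Receptors were highest in myeloid cells. C5ar1, the receptor through which C5a draws in leukocytes, was 947 CPM in injured neutrophils (920.6 to 974.5), and only 4 uninjured neutrophils were available. Phagocytes had 289 CPM in injured and 471 CPM in uninjured cells, 1.63-fold lower (1.57 to 1.70). Neutrophils held 27.0% and phagocytes 65.8% of injured C5ar1 UMIs, and phagocytes held 96.2% in the uninjured library. C5ar2, a second C5a receptor that does not couple to G proteins, was 21.7 CPM in injured and 55.8 CPM in uninjured phagocytes, 2.57-fold lower (2.27 to 2.91), a call that was lost when doublets were kept (log2 ratio -0.87), with coarser clusters (-0.92) or with 1000 or more genes required per cell (-0.90). Lymphatic endothelium, with 9.92 CPM in injured and 25.9 CPM in uninjured cells, held 2.59% of injured and 11.6% of uninjured C5ar2 UMIs. C3ar1, the C3a receptor, was 293 CPM in injured and 372 CPM in uninjured phagocytes, 1.27-fold lower (1.22 to 1.33).

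Itgam and Itgax encode the alpha chains of 2 integrin receptors for C3 fragments. Itgam was 450 CPM in injured neutrophils and hardly differed in phagocytes, at 275 CPM in injured and 286 CPM in uninjured cells, a ratio of 0.961 (0.915 to 1.01). In dendritic cells it was 149 CPM in injured and 286 CPM in uninjured cells. Itgax was highest in dendritic cells, at 73.0 CPM in injured and 102 CPM in uninjured cells. Phagocyte cluster 2 held 44.6% of injured and 23.8% of uninjured Itgax UMIs, at 57.4 and 93.3 CPM. Cluster 5 held 12.2% of the injured ones. Itgax also stood at 70.9 CPM in injured cluster 30 (Gzma, Nkg7) of the T or NK cells. In injured B or plasma cells (cluster 31) it was 44.4 CPM. The leading genes of cluster 31 held the dendritic marker Siglech beside Igkc and Cd79a. Its dendritic marker list summed to 1805 CPM, against 1514 CPM in injured dendritic cells. The part of dendritic cells in its Itgax level was not tested. Vsig4, a receptor for C3b on tissue-resident macrophages, was 7.22 CPM in injured and 30.2 CPM in uninjured phagocytes, 4.19-fold lower (3.48 to 5.03). Cluster 8 held 69.0% of injured and 97.5% of uninjured Vsig4 UMIs, and cluster 5 held 20.1% of the injured ones. The level in cluster 8 was 35.7 CPM in injured and 38.8 CPM in uninjured cells, a ratio of 0.921 (0.756 to 1.12).

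**Figure D3:**
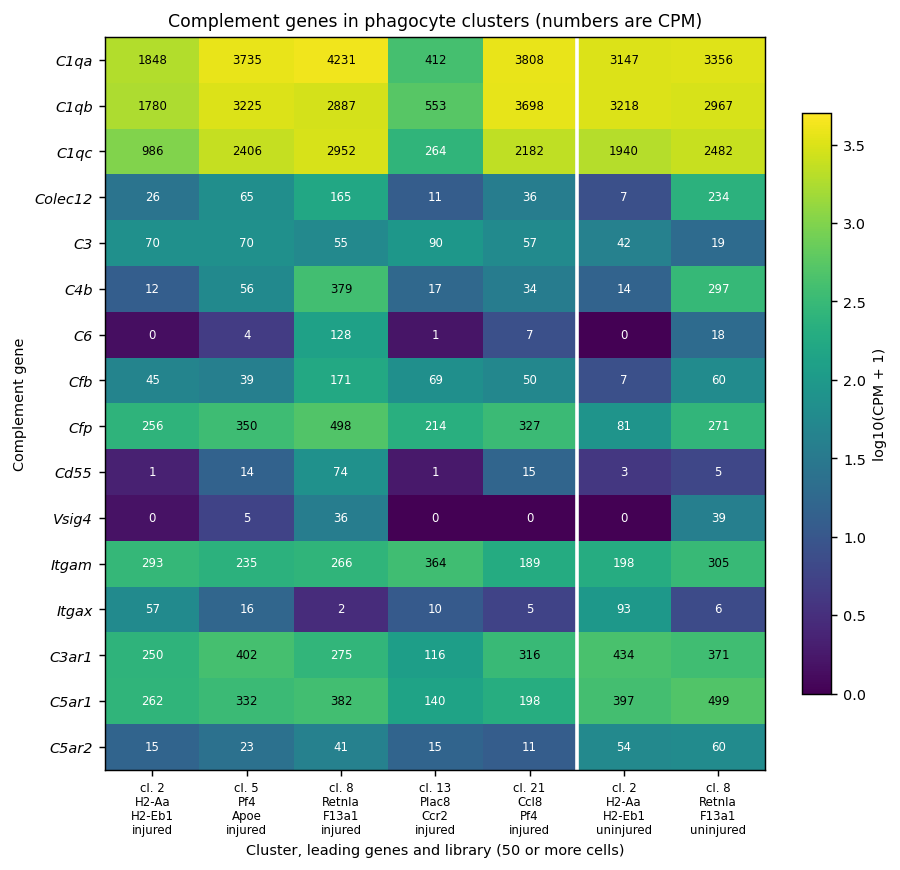
Level in CPM (numbers; colour is log10(CPM + 1)) of 16 complement genes in the phagocyte clusters with 50 or more cells, injured clusters on the left and uninjured clusters on the right of the white line. Cluster 8 carries C4b, C6, Colec12 and Vsig4 in both libraries, and its injured cells have more C6, Cfb, Cd55 and C3 than its uninjured cells.

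Counted by class, past 2-fold on a log2 ratio with 5 CPM added and among members with a mean level of 10 CPM or more, the mesenchymal class had 6 of 18 members higher in the injured library (C1qa, C1qb, C1qc, Masp1, Cfb and Cd59a), where 4.07% of all genes were higher, and 3 lower (C7, Clu and Cd55), where 6.31% of all were lower. The 3 C1q chains in that count are the low levels set beside the macrophage markers above. On a median-of-ratios scale the mesenchymal levels were shifted by 0.12 in log2 toward the injured library before 5 CPM was added. Mesenchymal log2 ratios thus rose by at most 0.12, less at low levels, and the same 9 members were called. Different clusters made up most of this class in each library, clusters 4, 7 and 10 in the injured and 6, 14 and 17 in the uninjured. In the shared cluster 6, 6 of 18 members were higher (C1qa, C1qb, C1qc, Masp1, Cfb and Cd55; 1.99% of all genes) and 1 lower (C7; 2.09%). Of 18 members in phagocytes, 2 were higher (C3 and Cd55; 2.86% of all genes) and 4 lower (Colec12, C4b, Vsig4 and C5ar2; 4.21%). Of 19 members in cluster 8, 4 were higher (C3, C6, Cfb and Cd55; 1.75%) and none lower (3.22%). Cluster 2 had 3 of 15 higher (Colec12, Cfb and Cfp; 4.56%) and 2 lower (Serping1 and C5ar2; 4.42%), with 62 uninjured cells.

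In vascular endothelium 4 of 11 members were higher (the C1q chains and Cfb; 4.23% of all genes) and none lower (4.33%). Its venule-like cluster 11 had 3 of 13 higher (the C1q chains; 2.49%) and 2 lower (Masp1 and Clu; 2.93%), and its artery-like cluster 23 had 4 of 9 higher (C1qa, Cfb, Serping1 and Cd55; 4.15%) and none lower (3.42%). Pericytes or smooth muscle cells had 3 of 14 higher (the C1q chains; 5.78%) and 3 lower (Clu, Vtn and Cd59a; 5.91%), and their cluster 12 had 3 of 16 higher (the C1q chains; 5.67%) and 5 lower (C2, C3, C4b, Vtn and Cd59a; 6.56%). In dendritic cells, C5ar1 was the 1 member of 10 higher (5.06%), at 29.2 CPM in injured and 10.5 CPM in uninjured cells, and none was lower (5.69%). The smaller classes had wide counting errors and larger background shares. In Schwann cells 3 of 13 were higher (the C1q chains; 10.8%) and 3 lower (C2, Serping1 and Cd55; 8.75%), and in lymphatic endothelium 2 of 12 were higher (C1qa and C1qb; 10.2%) and 3 lower (Clu, Cd46 and C5ar2; 9.75%).

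Over all cells together, few members were past 2-fold. Of the 23 members with a mean of 10 CPM or more, 2 were past 2-fold higher (Cfb and Cfp; 4.51% of all genes) and 3 lower (C7, Clu and Vtn; 6.17%), and the median log2 ratio was 0.12, beside -0.03 over all 9645 genes. C1qa was 506 CPM in injured and 252 CPM in uninjured cells, 2.01-fold higher (1.98 to 2.04), and 0.99 on the log2 scale with 5 CPM added, just short of a call. C5ar1 was 73.9 and 36.2 CPM and Itgam 62.1 and 29.8 CPM, both just short as well. On a median-of-ratios scale the split was 5 higher and 3 lower, with C1qa, Itgam and C5ar1 added.

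To set class makeup apart, injured levels of the 7 shared classes were reweighted to the uninjured shares of UMIs, with no test. C1qa was 563 CPM in injured cells of these classes as measured and 297 CPM after reweighting, against 297 CPM in uninjured cells. The log2 ratio of C5ar1 changed sign, with 0.45 as measured and -0.37 at the uninjured makeup, and C3ar1 went with it, at 0.72 and -0.12. Cfb kept most of its ratio, at 1.48 as measured and 1.13 reweighted. C7 was -2.33 and -2.49, and Clu -1.61 and -0.97. Neutrophils are not among these classes, so their part in C5ar1, Itgam and Cfp is left out here.

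**Figure D4:**
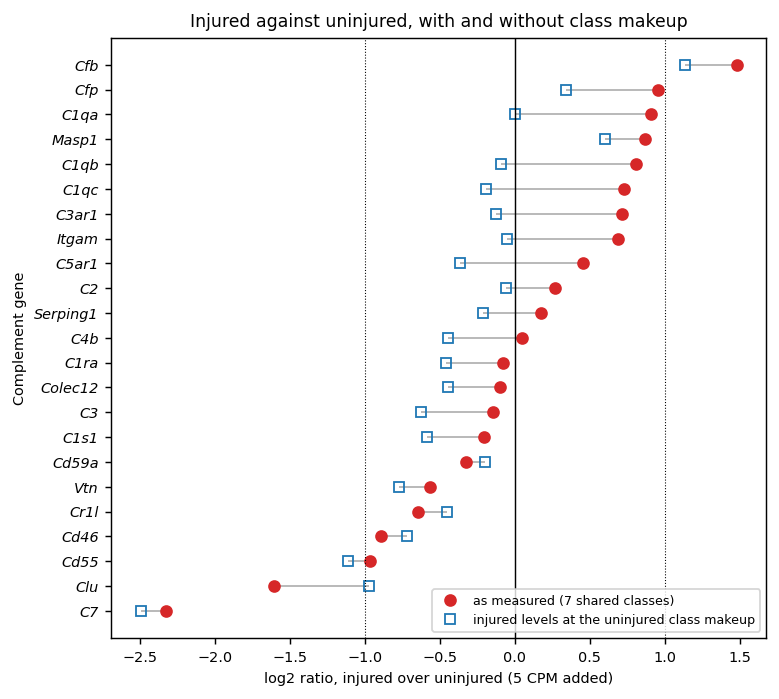
log2 ratio, injured over uninjured, of the 23 members with a mean of 10 CPM or more, over 7 shared classes as measured (red circles) and with injured class levels weighted by the uninjured class makeup (blue open squares); dotted lines mark 2-fold. The C1q chains, C3ar1 and C5ar1 lie at or below 0 after reweighting, while Cfb stays above 1 and C7 below -2.

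**Figure D5:**
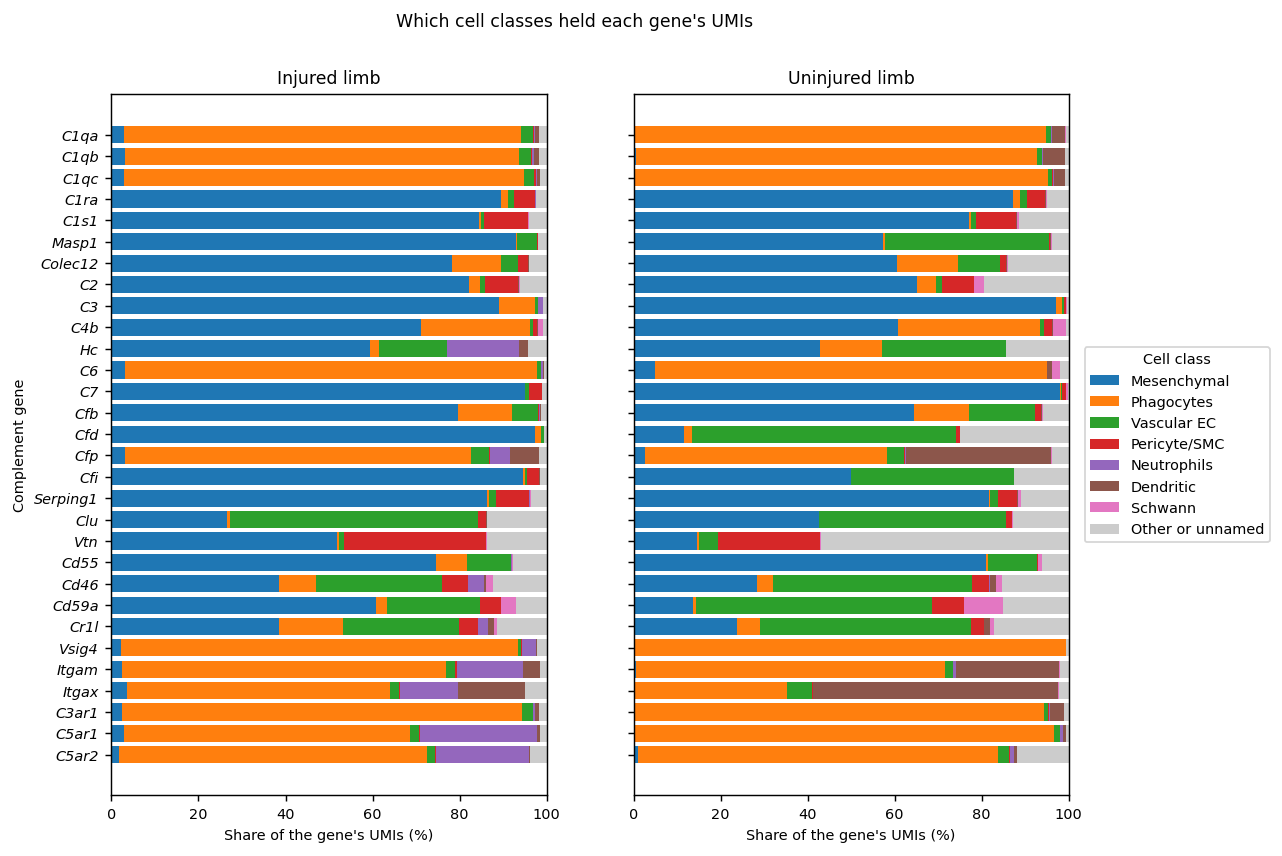
Share of each gene's UMIs (percent) held by each cell class in the injured limb (left) and the uninjured limb (right). Phagocytes hold most UMIs of the C1q chains, C3ar1, C6 and Vsig4, and mesenchymal cells most of C1ra, C1s1, C3, C7 and Serping1, in both limbs.

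Of 34 further complement genes, set down as a list beside the members, 9 reached a mean of 10 CPM over all cells. Of these 9, 2 were past 2-fold higher (Itgb2 and Ptx3, beside 4.51% of all genes) and 2 lower (Cd93 among them, beside 6.17%). Pentraxin 3 (Ptx3), which binds C1q, was 207 CPM in injured and 23.6 CPM in uninjured mesenchymal cells, a ratio of 8.80 (8.14 to 9.52). Itgb2, the beta chain that pairs with Itgam and Itgax, was 45.0 CPM in injured and 18.6 CPM in uninjured cells overall and 189 and 156 CPM within phagocytes. The genes of the pore that are not members had at most 147 injured UMIs over all cells (C8g), and Mbl1 had none in either library, which allows up to 3 UMIs.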

How the data were processed

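The deposited values are raw UMI counts, one per gene and cell barcode, made with Cell Ranger 5.0.1 on mm10, per the submitters' processing notes; annotation release and cell calling were not given in the sources used here. Cells needed 500 or more genes and no more than 10% mitochondrial UMIs, and scrublet scores above 0.2 (scanpy 1.11.5) removed 202 of 9366 injured (2.16%) and 58 of 4760 uninjured cells (1.22%), since its automatic thresholds marked 7 and 8. Free RNA was not removed. Both libraries were clustered together (2000 variable genes without complement, mitochondrial, ribosomal, haemoglobin, immunoglobulin or sex-linked genes; 30 components; 15 neighbours; Leiden resolution 0.8, igraph 0.11.9), without batch correction (injury and library coincide). The 37 clusters were named from marker lists without members; ambiguous or shallow ones (274 injured and 391 uninjured cells) stayed unnamed. UMIs were summed per library and class (CPM). Intervals are exact Poisson, conditional or Clopper-Pearson (95%). Ratios added 5 CPM for calls, past 2-fold, at a mean of 10 CPM or more; classes needed 50 cells in both libraries. The ratio step was tested on simulated data. All 30 members were to be named. Members, lists and thresholds were chosen with earlier results of these data known. The alternatives tried are given at the end. Levels of near-identical genes (C1ra, C1s1, C4b, Cd55 and Cd59a with their copies) are uncertain. One gene of the further complement list is not reported here.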

Additional observations from a re-analysis of the deposited data

Results flagged for a closer look

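Cd55 was past 2-fold in opposite directions in different classes. Its log2 ratio, injured over uninjured, was 1.22 in mononuclear phagocytes, against -1.56 in mesenchymal cells and -1.34 in Schwann cells. Cd59a likewise had 1.07 in mesenchymal cells and -1.13 in pericytes or smooth muscle cells. With 1 library per group the difference between classes was not tested.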

How the results depend on the processing

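Percentages here are the share of all genes past 2-fold in the same comparison, which also changed with the setting. Counts of members past 2-fold were 5 over all cells (10.7%), 9 in mesenchymal cells (10.4%), 6 in phagocytes (7.07%) and 4 in vascular endothelium (8.56%). They were 6 in pericytes or smooth muscle cells (11.7%), 1 in dendritic cells (10.8%), 6 in Schwann cells (19.6%) and 5 in lymphatic endothelium (19.9%). The mesenchymal and phagocyte counts stayed within 1.5 times under every alternative run. Over all cells the count was 11 with each cell weighted equally (14.8%) and 11 with cells thinned to 2000 UMIs (14.7%). It was 2 in cells that held Xist but no Y-linked UMI (female-type, 7.60%) and 13 in cells with the reverse (male-type, 14.4%). It was 8 on a median-of-ratios scale (10.7%) and 10 with 1 CPM added (13.1%). Vascular endothelium had 2 with a mitochondrial limit of 20% (7.93%), 2 at Leiden resolution 1.6 (7.13%) and 7 with no filter on low levels (2.79%). Dendritic cells had 0 with the 20% limit (10.8%), 3 with doublets removed at 0.8% per 1000 barcodes (11.4%) and 0 with each cell weighted equally (10.7%). They had 2 with thinned cells (21.5%), 2 in female-type cells (12.3%) and 3 with no filter (3.46%). Schwann cells had 3 with the 20% limit (20.1%) and 1 with more doublets removed (20.3%). Lymphatic endothelium had 3 with each cell weighted equally (16.65%), and pericytes or smooth muscle cells 3 in male-type cells (14.5%). The causes were not tested. Signs reversed in Schwann cells for C2 (0.44 with more doublets removed), Serping1 (0.016 with each cell weighted equally) and Cd55 (0.16 with thinned cells). The class with a member's highest level was shared with the main setting for at least 17 of 21 members (injured) and 15 of 22 (uninjured). Leaving out phagocyte cluster 21 or the cycling endothelial cluster 20, alternatives chosen after seeing the data, left 6 phagocyte and 3 vascular calls. Further calls ended for C4b in phagocytes (-0.998 in female-type cells), C1qc in pericytes (0.90 with thinned cells), Clu in pericytes (-0.36 to -0.98 under 5 alternatives), C5ar1 in dendritic cells (0.56 to 0.99 under 4), and over all cells for Cfp (0.64) and Clu (-0.69) in female-type cells. No paired analysis was possible because each group has 1 library, and no library could be left out.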
